A study of Homo sapiens with 3 samples.

Results

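The canonical histone genes lie in clusters and are transcribed mainly while a cell replicates its DNA. They were examined here in MM1S, a line of human multiple myeloma cells. A probe set, the group of probes that the array treats as 1 measurement, was taken as a member when the platform annotation gave it exactly 1 symbol of a clustered histone gene. The symbols taken were H1-1 to H1-6 and those starting with H2AC, H2BC, H3C or H4C followed by a number. This rule found 48 of the 54675 probe sets, for 42 of the 69 protein-coding genes with such a symbol in RefSeq. Another 19 of these genes are covered only by probe sets annotated to several genes, which are not members. The members comprise 7 probe sets of linker histone H1, 10 of H2A, 14 of H2B, 8 of H3 and 9 of H4. By their older symbols, 45 belong to the HIST1 cluster, 1 to HIST2 and 2 to HIST3.

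Untreated cells (time 0 h), cells kept in 10 nM FK866 for 6 h and cells kept in it for 24 h each gave 1 array. FK866 is an inhibitor of NAMPT, which controls the pace of NAD recovery from nicotinamide. The comparisons ask how histone transcript signals under the inhibitor differed from untreated cells early and late. All cells were of the same line, grown in RPMI-1640 with FBS, and an untreated array matched to either treated time is not among the samples, so FK866 and time in culture cannot be told apart. With 1 array per group there is no test and no replicate error, and fewer cells in S phase and less histone RNA per cell cannot be told apart in such bulk samples.

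DNA is wound around octamers of the core histones H2A, H2B, H3 and H4, and H1 binds the linker between them. New histones are needed whenever DNA is copied, so the clustered genes are switched on in S phase under the coactivator NPAT. Their mRNAs normally end in a stem-loop bound by SLBP in place of a poly(A) tail, and they decay quickly when replication stops. Some of these genes also give polyadenylated transcripts. The usual Affymetrix labelling starts from the poly(A) tail. How much of each histone mRNA these arrays could label was not tested.

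The promoters of the members whose signals are described most closely below are shown because H2A and H2B genes differ in part from H4 genes in the elements they carry. Each line gives the 200 bases before the gene start from RefSeq on GRCh38.p14, 5′ to 3′ on the gene's strand. Capitals mark matches on either strand to the octamer ATTTGCAT, bound by OCT factors, to the CCAAT box (CCAAT), to a TATA box (TATAA), to the palindrome TGACGTCA bound by CREB and CREM, and to GGTCCG, found in H4 promoters. Adjoining capitals can belong to overlapping matches of different motifs.
H2BC12, chr6:27146859-27147058, minus strand: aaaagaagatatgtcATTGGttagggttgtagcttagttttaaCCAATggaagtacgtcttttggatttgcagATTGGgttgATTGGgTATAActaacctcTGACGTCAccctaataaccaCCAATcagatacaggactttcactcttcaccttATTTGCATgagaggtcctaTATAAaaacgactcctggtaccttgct
H2BC21, chr1:149886683-149886882, minus strand: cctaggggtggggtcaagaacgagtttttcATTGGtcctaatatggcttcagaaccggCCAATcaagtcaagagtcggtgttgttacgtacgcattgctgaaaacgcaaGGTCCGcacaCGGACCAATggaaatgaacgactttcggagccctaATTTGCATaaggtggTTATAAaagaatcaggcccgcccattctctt
H2BC5, chr6:26157921-26158120, plus strand: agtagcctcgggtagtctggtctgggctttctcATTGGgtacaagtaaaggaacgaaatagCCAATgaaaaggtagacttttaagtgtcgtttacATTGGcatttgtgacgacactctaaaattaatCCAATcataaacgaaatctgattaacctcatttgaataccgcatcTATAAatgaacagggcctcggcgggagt
H2AC4, chr6:26033619-26033818, minus strand: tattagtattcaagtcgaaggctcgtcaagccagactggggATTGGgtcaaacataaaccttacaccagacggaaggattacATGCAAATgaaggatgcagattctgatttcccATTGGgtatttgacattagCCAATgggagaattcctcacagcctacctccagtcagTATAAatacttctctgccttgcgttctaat
H2AC8, chr6:26216721-26216920, plus strand: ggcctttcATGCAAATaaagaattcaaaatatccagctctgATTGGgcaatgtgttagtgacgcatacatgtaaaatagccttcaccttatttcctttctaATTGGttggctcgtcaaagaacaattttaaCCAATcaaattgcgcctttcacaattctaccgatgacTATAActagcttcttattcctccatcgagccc
H4C8, chr6:26285535-26285734, minus strand: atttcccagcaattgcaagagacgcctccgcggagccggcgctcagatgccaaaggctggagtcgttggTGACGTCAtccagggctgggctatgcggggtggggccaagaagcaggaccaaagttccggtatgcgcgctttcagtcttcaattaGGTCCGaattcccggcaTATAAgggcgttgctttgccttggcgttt
In H2BC12 and in H2BC21 the octamer lies 46 to 39 bases before the start, just upstream of a TATAA match. In H2AC4 and H2AC8 it stands on the other strand, beginning 118 and 192 bases before the start. H4C8 has a GGTCCG beginning 46 bases before the start and a TGACGTCA beginning 131 bases before it. H2BC21 also holds GGTCCG, H2BC5 has no octamer match, and H2BC12 shares TGACGTCA with H4C8.

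In the 250 bases before the start, 10 of 13 matched H2B member genes and 6 of 8 H2A member genes held the octamer, as did 0 of the 6 H1, 0 of the 6 H3 and 0 of the 7 H4 genes. Of all 27305 genes in the table, 1.66% did. GGTCCG was found in 6 of 7 H4 genes, 1 of 13 H2B genes (H2BC21) and 1 of 6 H3 genes (H3C7), against 9.33% of all genes. CCAAT was found in 35 of 40 member genes, against 33.0%. TATAA occurred in 38 of 40, against 19.6% of all genes. TGACGTCA occurred in 7 of 40, against 1.77%. By gene order in the same RefSeq assembly, 11 pairs of an H2A and an H2B gene point away from each other with 194 to 248 bases between their starts. Such a pair shares its promoter window, so that an octamer upstream of H2AC8 also lies upstream of its neighbour H2BC8. A match to these letters is a description and was not tested as a binding site.

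**Figure D1:**
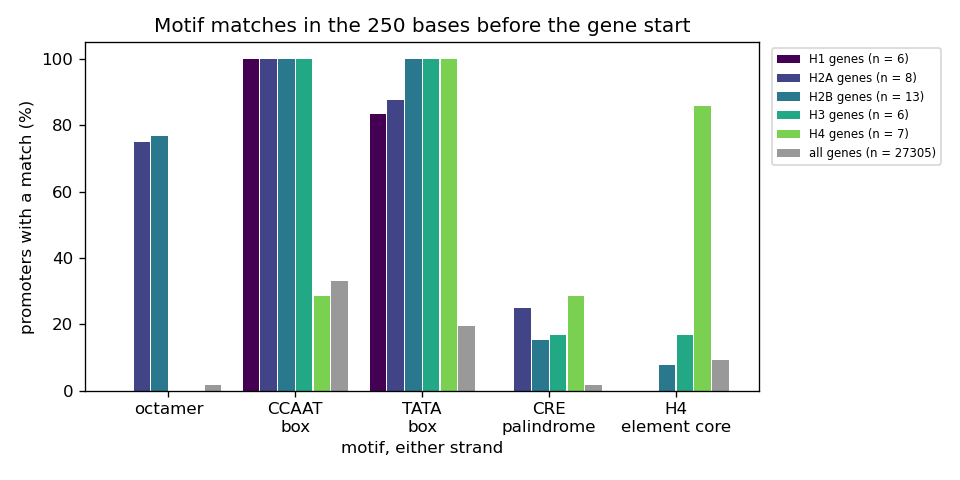
Share of promoters (%) with at least 1 match to each motif on either strand in the 250 bases before the gene start, for the member genes of each histone class and for all 27305 genes in the RefSeq table. The octamer bar of the H2B genes reaches 76.9%, that of all genes 1.66%, and the H4 bar for GGTCCG (H4 element core) reaches 85.7%.

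Signals are deposited intensities in arbitrary units on a linear scale. Values below 16 were raised to this floor before log2 was taken. A probe set was counted when the mean of its 3 log2 values reached the median over all non-control probe sets, a signal of 19.1. Of the 48 members, 23 passed, for 21 genes, and 25 did not. Those that passed were dim. Their mean signals ran from 24.1 to 645, 14 were under 64, and the brightest 2 were H1-2 and H2BC12. Passing rests on the mean, so a member high on 1 array can pass: 3 of the 23 had a signal under 19.1 on at least 1 array. Counts over the 23 therefore describe these arrays and not the whole gene set. A log2 difference of -1 is a 2-fold lower signal. The median kept probe set differed from untreated cells by -0.14 at 6 h and by -0.18 at 24 h, which is the base line for the values that follow. All 10 plasma cell markers listed passed the filter, and all their probe sets together summed to between 55398 and 58063 on each array. Single markers differed from untreated cells at 24 h by between -0.79 (XBP1) and 0.93 (IRF4). Of 7 myeloid, 7 T and NK cell and 6 stroma markers, 2, 1 and 1 passed, and each list's probe sets summed to between 87.6 and 325.

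Signals of 22 of the 23 counted histone probe sets were lower at 24 h than in untreated cells, and at 6 h those of 13 were. With rescaled arrays the 24 h count was 17 (quantile normalization) or 16 (centring on array medians), and the 6 h count was 5 under either. Of all 11883 genes, each by its brightest kept probe set, 7750 were below 0 at 24 h without rescaling. After quantile normalization 5199 were, and after centring 4341. At 6 h these gene counts were 7510, 5359 and 4101. The median difference was -0.54 at 24 h and -0.03 at 6 h. After quantile normalization it was -0.34 at 24 h and 0.15 at 6 h, and after centring -0.29 and 0.20, so that the 6 h sign turned. At 24 h, 95.7% of the counted members were below 0, against 68.2% of all 27308 kept probe sets. At 6 h it was 56.5%, against 66.3%. Below the median of all kept probe sets lay 18 of the 23 at 24 h, and 17 and 18 after the 2 rescalings. With floors of 32 and 64, which set low signals equal, 13 and 8 of the 23 did. The number below 0 at 24 h was then 18 and 8, so these counts rest in part on signals near the floor. Of all 11883 genes, 7038 and 5994 were below 0 at 24 h with these floors. Among the 3 arrays, the 24 h array had the lowest signal for 20 of the 23, or 87.0%, against 43.4% of all kept probe sets. That count was 16 after quantile normalization and 15 after centring on array medians. The share of all kept probe sets lowest at 24 h after rescaling was not computed.

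Differences of 2-fold or more were few. At 24 h, 4 of the 23 counted members were at least 2-fold lower (17.4%), against 6.34% of all kept probe sets, and 0 were at least 2-fold higher, against 1.14%. At 6 h, 2 were at least 2-fold lower (8.70%), against 5.26%, and 0 were at least 2-fold higher, against 1.34%. Of the 4 called at 24 h, 3 had a 24 h signal under 19.1 and entered the count through their other arrays. H2AC4, 1 of the 2 called at 6 h, was under 19.1 there too (19.0) and entered through its untreated array alone. At 1.5-fold, 11 members were lower at 24 h (47.8%), against 19.3% of all kept probe sets. At 6 h 3 were (13.0%), against 16.5%. Within the range of levels of the members, 6.93% of 18752 probe sets were at least 2-fold lower at 24 h and 19.8% at least 1.5-fold lower. Dim probe sets were called more often. Among 10487 kept probe sets with a mean signal under 64, 1243 were at least 2-fold lower at 24 h and 1087 at 6 h. Their medians were -0.29 and -0.23. Of the 14 counted members under 64, 4 and 2 were, with medians of -0.55 and -0.07. The balance over the whole table depended on scaling: past 2-fold at 24 h, 310 kept probe sets were higher and 1730 lower, but 634 and 890 after quantile normalization. At 6 h these counts were 365 and 1436, and 623 and 730 after quantile normalization.

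The only error measure in the series is how far several probe sets of 1 gene lie apart, which covers probe error and isoforms and not variation between cultures. Its pooled SD at 24 h was 0.56 on the log2 scale for genes with a mean signal under 32 (n = 395 genes), 0.49 from 32 to 64 (n = 970) and 0.29 at the level of H1-2 and H2BC12 (n = 1533). Of the 23 counted members, 13 differed from untreated cells at 24 h by more than 1 SD of their level, all 13 lower. Beyond 2 SD lay 4, namely H2AC4, H2BC12, H2BC21 and H4C8 by its _s_at probe set. Of these, H2AC4 and the H4C8 probe set had a 24 h signal under 19.1. At 6 h, 4 exceeded 1 SD, 3 of them lower. These differences are taken from 0 and so include the shift of the whole table, a median of -0.18 at 24 h over all kept probe sets. Over those with a mean signal under 64 it was -0.29. The share of all kept probe sets beyond 1 or 2 SD was not computed, so whether these counts are particular to the histone members cannot be told.

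**Figure D2:**
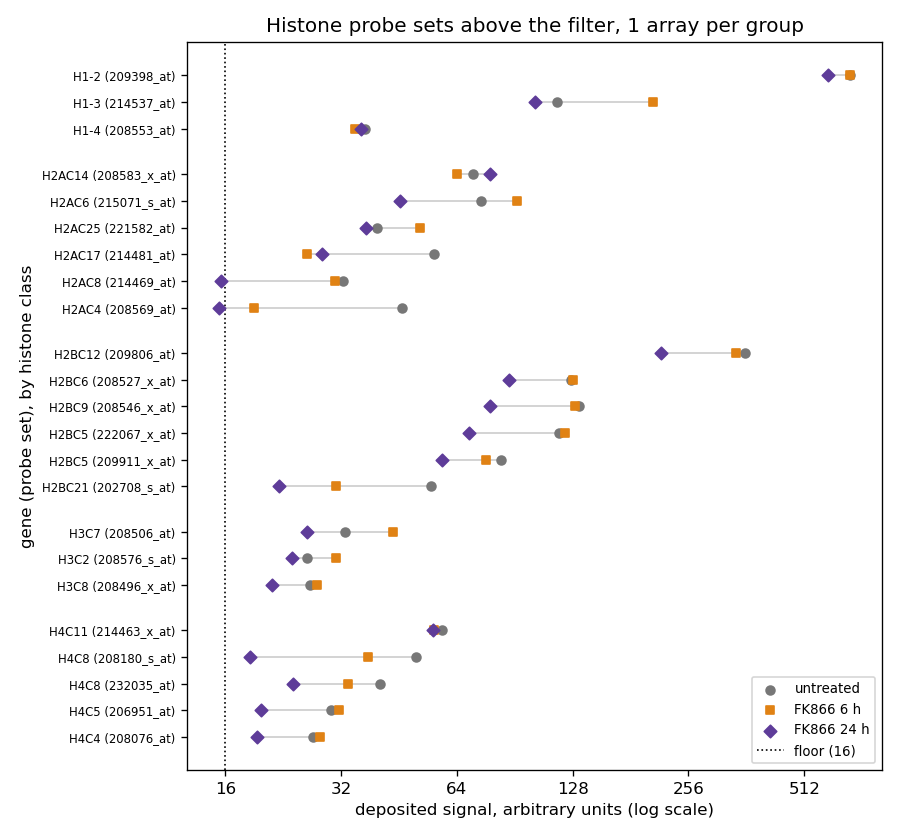
Deposited signal (arbitrary units, log2 axis) of the 23 histone probe sets above the filter on the untreated, 6 h and 24 h arrays, 1 point per array, ordered by histone class and brightness. Points have no error bars because each group has 1 array, and for 20 of 23 probe sets the 24 h point is the lowest.

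The 3 counted linker histone genes had the median nearest to 0 at 24 h, -0.20, and its sign depended on scaling: it was 0.01 after quantile normalization and 0.05 after centring. H1-2, which encodes an abundant somatic linker histone and is the brightest member, had 675 untreated, 674 at 6 h and 589 at 24 h. Its 24 h difference of -0.20 was smaller than the probe set spread at that level. H1-3, another somatic linker histone, had 116.7 untreated, 207.0 at 6 h and 101.9 at 24 h, so the 6 h array was the high one. The 6 h difference of 0.83 was the highest of any counted member, a 1.77-fold higher signal, and between the treated arrays the 24 h signal was 2.03-fold lower. After centring on array medians the 6 h difference was 1.06, past 2-fold. H1-4 was nearly level, with 36.9 untreated, 34.7 at 6 h and 36.0 at 24 h. The testis-specific H1-6, with 2 probe sets, and H1-1 and H1-5 did not pass the filter.

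The H2A genes ranged widely, from -1.53 to 0.14 at 24 h. Of 6 counted H2A probe sets, 5 were lower at 24 h (4 under either rescaling), 2 of them at least 2-fold, with a median of -0.83. H2AC4, a HIST1 gene for core histone H2A, had 46.2 untreated, 19.0 at 6 h and 15.4 at 24 h. Both treated arrays were low, and the 24 h value was below the floor. Its signal was 2.43-fold lower at 6 h and at least 2.89-fold lower at 24 h. H2AC17 had 55.9 untreated, 26.1 at 6 h and 28.5 at 24 h, a 2.14-fold lower signal at 6 h and 1.96-fold lower at 24 h. It and H2AC4 were the only counted members past 2-fold at 6 h, and H2AC17 was within 2-fold there after quantile normalization, at -0.88.

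H2AC8 and H2AC6 stood well below untreated cells on the later array alone. H2AC8 had 32.3 untreated, 30.8 at 6 h and 15.6 at 24 h, at least 2.02-fold lower at 24 h, but its difference was -0.78 after quantile normalization. H2AC6 had 73.9 untreated, 91.9 at 6 h and 45.6 at 24 h, which made the 6 h array the high one. The 24 h signal was 2.02-fold lower than at 6 h and 1.62-fold lower than in untreated cells. H2AC14 was the exception in the whole set: with 70.5 untreated, 64.2 at 6 h and 77.8 at 24 h, it was the only counted member higher at 24 h than in untreated cells, by 0.14, without rescaling. The probe sets of H2AC6 and H2AC14 end in _s_at and _x_at, the suffixes for probes shared by several transcripts or matching others in part. H2AC25, the HIST3 gene, had 39.6, 51.3 and 37.2 in the same order and differed by -0.09 at 24 h.

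The H2B genes were lower together at 24 h. All 6 counted H2B probe sets, for 5 genes, were below 0, from -1.32 to -0.51, and this count was 6 under either rescaling too. At 6 h 5 of them lay between -0.13 and 0.05. H2BC12, the brightest core histone member, had 359.8 untreated, 340.1 at 6 h and 217.0 at 24 h. The 24 h array stood apart from the others, and the 24 h signal was 1.66-fold lower than in untreated cells, 2.56 times the probe set SD of its level. H2BC21, the HIST2 gene, had 54.8 untreated, 31.0 at 6 h and 22.0 at 24 h. It was lower on both treated arrays, by -0.82 at 6 h and by 2.49-fold at 24 h. After quantile normalization the 24 h difference was -1.06, still past 2-fold.

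Each of the remaining 4 H2B probe sets ends in _x_at, so they may read the same transcripts and do not count as separate evidence. H2BC9 had 132.8 untreated, 129.9 at 6 h and 77.8 at 24 h, and H2BC6 had 127.1, 127.9 and 87.4. H2BC5 has 2 probe sets, with 118.1 and 83.2 in untreated cells, 122.1 and 76.1 at 6 h, and 68.9 and 58.5 at 24 h. In every one of the 4 the untreated and 6 h arrays lay close together and the 24 h array lay below both. The differences at 24 h ran from -0.78 to -0.51, and both H2BC5 probe sets, at -0.78 and -0.51, were on the same side.

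The H3 genes were dim, and their order was the same in each. Signals of H3C7 were 32.7 untreated, 43.7 at 6 h and 26.1 at 24 h. H3C2 had 26.1, 31.1 and 23.8, and H3C8 had 26.5, 27.7 and 21.2. All 3 were highest at 6 h and lowest at 24 h, with 6 h differences from 0.06 to 0.42 and 24 h differences from -0.33 to -0.13 (2 of 3 below 0 under either rescaling). Each was smaller than 1 SD of the probe set spread at its level.

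The H4 genes were lower at 24 h in 5 of 5 counted probe sets (4 under either rescaling), with a median of -0.61. That median was -0.34 after quantile normalization, -0.36 after centring and -0.07 with a floor of 32. H4C8, a HIST1 gene for core histone H4, is read by 2 counted probe sets. Its _s_at probe set had 50 untreated, 37.7 at 6 h and 18.5 at 24 h, and its _at probe set had 40.4, 33.3 and 24.0. They stepped down in the same order on the 3 arrays, by 2.70-fold and 1.68-fold at 24 h, so that 1 of the 2 passed 2-fold. H4C5 had 30.2, 31.6 and 19.8 and H4C4 had 27.0, 28.2 and 19.3, low on the 24 h array alone. H4C11 was nearly level, with 58.5, 55.8 and 55.6. Probe sets annotated to 14 H4 genes at once are not members. The brightest of them, with 13770 untreated, differed by only -0.12 at 24 h, and dim ones that passed the filter by -0.47 and 0.71.

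**Figure D3:**
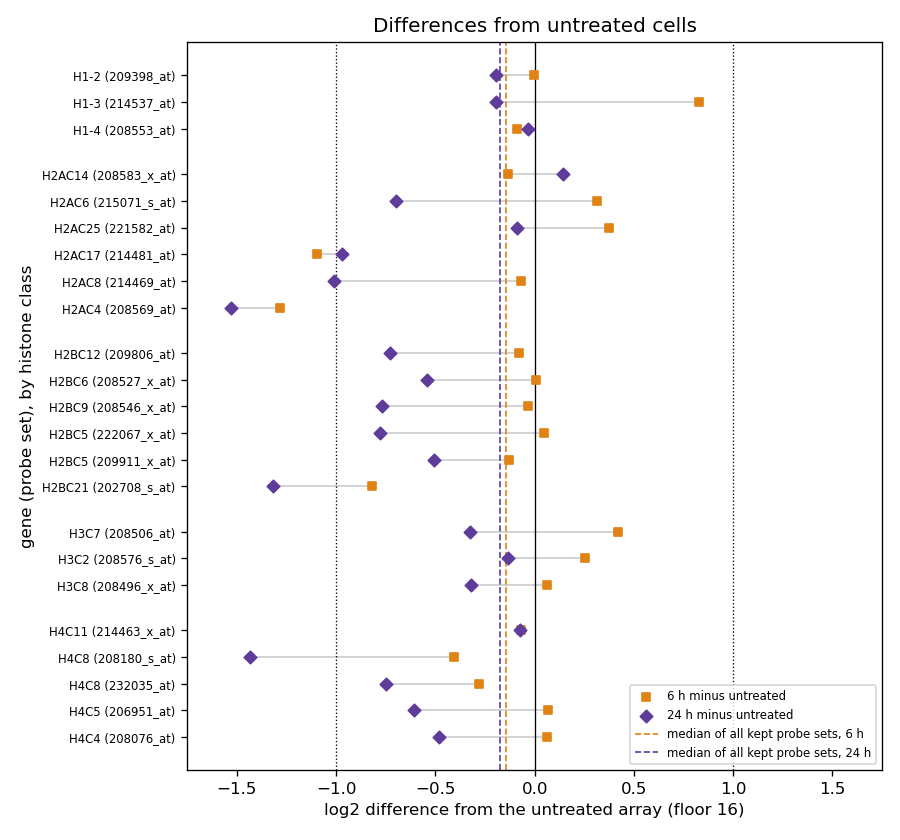
Log2 difference of the 6 h and the 24 h array from the untreated one for the 23 counted histone probe sets, with dotted lines at 2-fold and dashed lines at the median of all kept probe sets (-0.14 and -0.18). All 6 H2B and 5 H4 points at 24 h lie left of 0, and the only 24 h point right of 0 is H2AC14 at 0.14.

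By promoter elements, the 9 counted probe sets of genes with the octamer had a median difference of -0.77 at 24 h, with H2AC14 the only one above 0. The 14 without it had a median of -0.32, all 14 below 0. These groups follow the histone classes, since among the member genes only those of H2A and H2B hold the octamer. POU2AF1, the coactivator that binds OCT factors on octamers in B lineage cells, had 6020 untreated, 6582 at 6 h and 6342 at 24 h. The 6 counted probe sets with TGACGTCA in their promoter had a median of -0.67 at 24 h and the 17 without it -0.51. Whether either element bears on the differences was not tested.

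The IDs of 11 of the 23 counted members end in _x_at or _s_at, and whether these probe sets read other transcripts was not tested. The other 12 were all lower at 24 h, with a median of -0.55, and 2 of them were at least 2-fold lower. The 11 had a median of -0.54, with 10 below 0 and 2 at least 2-fold lower. The differences at 24 h are thus of like size in both kinds of probe set.

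**Figure D4:**
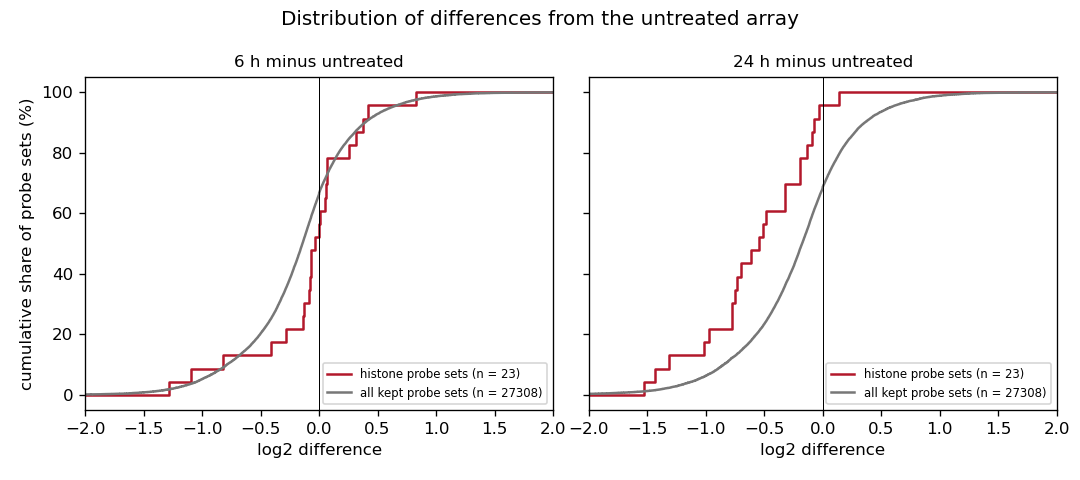
Cumulative share (%) of the 23 counted histone probe sets and of all 27308 kept probe sets by log2 difference from the untreated array, at 6 h on the left and 24 h on the right. At 24 h the histone curve lies left of the other, with medians of -0.54 and -0.18, and at 6 h the medians are -0.03 and -0.14.

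Between the treated arrays, 20 of 23 counted members were lower at 24 h than at 6 h (87.0%), against 53.9% of all kept probe sets. The median difference was -0.49, against -0.03, and 3 members were at least 2-fold lower (13.0%), against 2.01%, while 0 were at least 2-fold higher, against 1.23%. These 3 were H4C8 by its _s_at probe set, H1-3 and H2AC6. At 1.5-fold, 9 were lower (39.1%), against 8.94%. The median changed little with scaling, at -0.45 after quantile normalization and -0.48 after centring, although 0 members were past 2-fold after quantile normalization. H1-3 and H2AC6 had their highest signal at 6 h, and H4C8 in untreated cells.

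The 25 members that did not pass had no signal above 25.8 on any array, and 12 of all 48 were under 16 on all 3. Among the 25, 10 were at or above 16 untreated, 1 at 6 h and 6 at 24 h. H2BC14 had 25.4 untreated, 9.4 at 6 h and 16.2 at 24 h, and H3C3 had 23.1, 9.0 and 18.3. H2BC3 had its highest value at 24 h, with 3.0, 6.2 and 23.2, as did H4C7 with 10.3, 10.1 and 21.5. Values under the floor have no order, and no direction is drawn from these genes. Over all 48 members with the floor applied, the median difference was 0 at 6 h and -0.11 at 24 h, with 22 and 30 below 0 and 10 and 5 above it.

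Among histone genes that are also expressed outside S phase, signals at 24 h were mostly below untreated cells. Each gene here has the value of its brightest kept probe set, and the median of all 11883 genes was -0.10 at 6 h and -0.13 at 24 h. Of 8 measured variant and replication-independent histone genes, 7 were below 0 at 24 h, against 65.2% of all genes, and 6 and 5 after quantile normalization and centring. Of the 8, 0 were 2-fold lower (4.17% of all genes) and 0 were 2-fold higher (1.14%), with a median of -0.39. Other probe sets could pass 2-fold: the 5 kept ones of MACROH2A1 ran from -1.23 to -0.03 at 6 h and from -1.10 to 0.06 at 24 h. H2AX, the variant phosphorylated at DNA breaks, had 2994 untreated, 2330 at 6 h and 2094 at 24 h, and its 3 probe sets ran from -1.05 to -0.51 at 24 h. H2AZ1, the main gene of variant H2A.Z, had 11239, 10355 and 9076, a difference of -0.31 at 24 h. CENPA, the centromeric H3 variant, had 264.4, 289.1 and 172.5 and differed by -0.62. The linker histone gene H1-10 had 1701, 1152 and 1150 and was lower by a like amount on both treated arrays, at -0.56 and -0.57.

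By the brightest kept probe set of each gene, those for histone transcription, mRNA processing and chaperoning stayed within 2-fold. Other kept probe sets were past 2-fold lower for TUT4 (-1.14 at both times), YY1 (-1.29 at 6 h), NASP (-1.22 at 6 h) and NAP1L4 (-1.04 at 24 h). Of 27 measured genes of histone transcription and 3' end processing, 0 were past 2-fold at either time. Of all genes, 1.44% were higher and 3.32% lower at 6 h, and 1.14% and 4.17% at 24 h. Lists this short can hold 0 at such shares. The medians of the 27 were -0.08 at 6 h and -0.16 at 24 h. Their signs depended on scaling, with 0.02 and -0.02 after quantile normalization and 0.15 and 0.08 after centring. SLBP had 6529 untreated, 5467 at 6 h and 5444 at 24 h, a difference of -0.26 at both times. NPAT had 552.9, 513.5 and 538.3, and CASP8AP2 (FLASH), which works beside it at histone loci, had 780.7, 780.3 and 804.7. HINFP, the factor that binds H4 promoters, had 162.5, 145.2 and 125.3. Each of these 2 genes has another kept probe set, which differed by -0.83 at both times for CASP8AP2 and by -0.17 and -0.23 for NPAT, so the probe sets of CASP8AP2 disagreed. The 22 chaperone genes had medians of -0.15 and -0.05, with 0 past 2-fold. These medians were -0.02 and 0.13 after quantile normalization and 0.08 and 0.19 after centring. ASF1B, which hands H3 and H4 to the replication machinery, had 535.9, 521.2 and 480.9.

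Of 40 measured S phase genes, 2 were at least 2-fold lower at 6 h, near the 3.32% of all genes, and 0 at 24 h, against 4.17%. The medians were -0.11 and -0.18, and after centring 0.12 and 0.07. Those 2 were the cyclin CCNE2, with 586.8 untreated, 285.7 at 6 h and 347.3 at 24 h, and the transcription factor E2F1, with 153.6, 76.2 and 95.6. The other kept probe set differed at 6 h by 0.01 for CCNE2 and by -0.35 for E2F1, so each call rests on 1 of 2 probe sets. By the brighter ones both were lowest at 6 h, when most histone signals were not. The replication clamp PCNA had 5875, 4528 and 4192 and differed by -0.38 and -0.49. RRM2, a subunit of ribonucleotide reductase, had 13466, 10881 and 10047 and differed by -0.31 and -0.42. CCNE1 had 738.1, 523.8 and 784.4, low at 6 h alone. GINS4 was level at 6 h by its brightest probe set, at 0.02, but its 4 kept probe sets reached down to -1.60 there. The part of such genes in the histone differences was not tested.

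**Figure D5:**
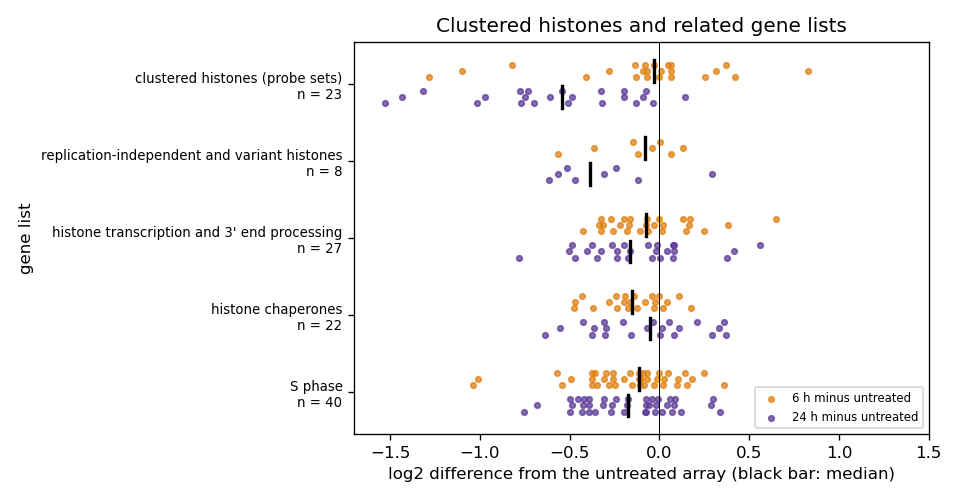
Log2 difference of the 6 h and the 24 h array from the untreated one for the 23 counted clustered histone probe sets and for the genes of 4 related lists (n = 8, 27, 22 and 40), 1 point per probe set or gene, with black bars at the medians. The clustered histones reach a median of -0.54 at 24 h, the variant histones -0.39 and the other 3 lists -0.16, -0.05 and -0.18. Genes of the lists are read by their brightest kept probe set. Of the 23 clustered histone probe sets, 14 have a mean signal under 64. With a floor of 32 their median at 24 h was -0.20, near that of the S phase list, and the medians of the 4 lists did not change.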

How the data were processed

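The authors deposited 1 intensity per probe set and array on a linear scale. Total RNA was turned into biotin-labelled cRNA, per the labels' protocols. The probe summary and array scaling are not given in the sources used here. Gene symbols came from GEO's platform annotation of 2016, and 48 of 48 members matched a RefSeq gene by identifier and symbol. The array medians were 20.4 (untreated), 17.4 (6 h) and 17.2 (24 h), and the number of arrays limits the precision.

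Signals were floored at 16 and log2 was taken, and differences are later minus earlier array. Kept probe sets reach the median of mean log2 values, 27308 in all. No test was run with 1 array per group. Members, lists and motifs were chosen with earlier results of these data known, and the motifs after the promoters had been read. Members given with their 3 signals are those at least 2-fold in a comparison, the 5 highest and lowest in each, and the brightest of each class, and the others were added after their values were seen. So were CENPA, H1-10, HINFP, POU2AF1, XBP1 and IRF4. Promoters of 40 of 42 member genes came from RefSeq (GRCh38.p14), taking the first start the table gives for a gene. Alternatives changed scaling, floor, filter, cross-hybridising probe sets, size and unit. The range of members' levels as a background, the count of 24 h lowest signals and the counts below 0 by class under each scaling were chosen after seeing the data. The procedure was tested on simulated data. The planted differences were all past 2-fold and lay in probe sets brighter than most counted members. Recovery of smaller differences or of those in dim probe sets was not tested. Python 3.11.15, numpy 2.4.6, pandas 2.3.3 and matplotlib 3.10.9 were used.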

Additional observations from a re-analysis of the deposited data

Results flagged for a closer look

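For 7 counted histone probe sets the signal was above untreated cells at 6 h and below them at 24 h without rescaling, after quantile normalization and after centring on array medians. Both times are set against the same untreated array, and the difference between them was not tested. On the log2 scale, 24 h lay below 6 h by -1.01 for H2AC6, by -0.83 for the brighter probe set of H2BC5 and by -0.74 for H3C7. The difference was -0.67 for H4C5, -0.55 for H2BC6, -0.55 for H4C4 and -0.39 for H3C8. Most of the 6 h differences from untreated cells were small: 0.01 for H2BC6, 0.05 for H2BC5, 0.06 for H3C8 and H4C4 and 0.07 for H4C5. After quantile normalization the 24 h difference was only -0.03 for H3C7 and -0.06 for H3C8. All 7 of the 6 h differences were smaller than 1 SD of the probe set spread at their level. The share of all kept probe sets with this pattern was not computed, so whether it is particular to these members cannot be told.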

How the results depend on the processing

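Signals near the floor limit every count, since 14 of the 23 counted members have a mean signal under 64. At 24 h, the 4 members at least 2-fold lower became 0 with a floor of 32, 0 with a floor of 64, 0 of 5 with a filter at the 75th percentile, 2 of 12 without _x_at and _s_at probe sets, and 11 at 1.5-fold. The 24 h median of -0.54 became -0.34 after quantile normalization, -0.29 after centring on array medians, -0.20 and 0 with floors of 32 and 64, and -0.11 with no filter. At 6 h, the 2 members at least 2-fold lower became 1 under either rescaling and 0 with either higher floor or the 75th percentile filter. The 0 higher members became 1 (H1-3) after centring and at 1.5-fold. The 6 h median of -0.03 changed sign, to 0.15 after quantile normalization and 0.20 after centring. Between the treated arrays, the 3 lower members became 0 after quantile normalization, 1 with a floor of 64, with the 75th percentile filter and without _x_at and _s_at probe sets, and 9 at 1.5-fold. Their median of -0.49 became -0.057 and 0 with the higher floors, 0 with no filter and -0.65 with the 75th percentile filter. Higher floors set low signals equal by construction, and no filter adds members at the floor. The cause of the other shifts was not tested. By gene in place of probe set, the counts of lower members were 2, 4 and 3 with the brightest probe set and 2, 4 and 2 with the mean. No paired analysis was possible because each group has 1 array.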

Other observations

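Several histone probe sets are annotated to more than 1 clustered gene and so fall outside the rule. One, annotated to 14 H4 genes at once, had 13770 untreated, 13736 at 6 h and 12683 at 24 h, a log2 difference of -0.12 at 24 h. The 5 counted probe sets annotated to a single H4 gene had a median of -0.61. In all, 20 probe sets are annotated to several clustered histone genes and 15 of them passed the filter, with 11 below 0 at 24 h, near the 68.2% of all kept probe sets, and a median of -0.47, against -0.18.

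Among these, the 2 brighter probe sets of H2AC18 with H2AC19 had 594.9 and 360.8 untreated, 510.2 and 285.7 at 6 h, and 331.5 and 210.9 at 24 h. They differed by -0.84 and -0.77 at 24 h, while the third probe set of that pair was higher, with 12, 14.7 and 28.8. A probe set annotated to H2BC4, H2BC6, H2BC7, H2BC8 and H2BC10 had 62.1, 67.5 and 27.6. A probe set annotated to 10 H3 genes together with H2AC7 had 68.3, 32.4 and 11.9. Higher at 24 h were 4, namely the dim probe set of that pair, another of H2A genes (29.1, 39.8 and 38.9), one of H3 genes (24.2, 20.2 and 30.8) and one of H4 genes (29.1, 52.7 and 47.5). Which of the annotated genes gave these signals cannot be told apart.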
